A study of Caenorhabditis elegans with 20 samples.

Results

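The lipid-binding protein genes lbp-1 to lbp-9 are the C. elegans relatives of the fatty acid binding proteins of other animals. They were taken by name from a table of RNA-seq counts per gene in whole worms, and all 9 were among its 28301 genes. Animals of the L4 stage, the last larval stage, were of 2 genotypes, a mutant of the nuclear hormone receptor gene nhr-131 and wild type, which the table's columns name N2. The labels give the genotype of the mutant only as nhr131, with no allele, strain name or outcross. Both genotypes were raised in liquid culture from synchronized L1 larvae and received either F17, a compound that the labels name only by this code, at 2.5 µM, or its solvent DMSO at 0.1%, for the 4 h before harvest. The 20 libraries were thus 5 of nhr-131 with F17, 5 of nhr-131 with DMSO, 5 of wild type with F17 and 5 of wild type with DMSO. The labels call the 5 of a group independent biological replicates, and RNA came from whole animals, so fewer cells of a type and less RNA per cell cannot be told apart.

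Proteins of this family are small barrels that enclose a fatty acid or a related lipid and carry it through water. In the worm, LBP-1, LBP-2 and LBP-3 have signal peptides and leave the cell, whereas LBP-8 sits at the lysosome of intestinal cells and can carry lipids released there to the nucleus, where the receptors NHR-49 and NHR-80 act on genes of fat metabolism. LBP-5 has also been linked to NHR-49 and to fat storage. The comparisons ask which members differ in RNA level with F17, which differ with the loss of nhr-131, and whether the response to F17 differs between the genotypes.

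The libraries held 12836400 to 26908400 counts, of which 2.24% to 27.5% fell on ribosomal RNA genes, and 3 counts equalled 0.11 to 0.282 CPM, the unit of level used here, which scales counts to a common library size with TMM factors. The nhr-131 transcript itself had 0 to 4 counts in each mutant library and 77 to 196 in each wild-type library. Markers of intestine, hypodermis, body wall muscle, pharynx, neurons and germline were all detected, with no marker at 0 in all libraries. All libraries are labelled L4, but within groups they differed in genes that change with age. A stage score averages the z-scores of 11 vitellogenin and cuticle collagen genes whose levels change as L4 larvae become adults. Its mean was 0.415 ± 1.09 in nhr-131 with F17, 0.0512 ± 1.01 in nhr-131 with DMSO, -0.369 ± 0.735 in wild type with F17 and -0.0971 ± 0.80 in wild type with DMSO (SD, n = 5 each). In 6 libraries it was at or below -0.926, and in the other 14 at or above -0.127. With the libraries of each group named by the letters a to e of the table's columns, the 6 low-score ones were library c of both nhr-131 groups, library a of both wild-type groups, library d of the F17-treated wild type and library c of the DMSO-treated wild type. Results that rest on them are given with and without them. Whether the score tracks age alone was not tested. Markers of several tissues moved with it within groups, as given below.

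All 9 members were transcribed in every library, and lbp-6 outweighed the rest. Divided by the length of its exons, lbp-6 averaged 994 CPM per kilobase over the 20 libraries and ranked first of the 9 in all 20. It made up 56.1% ± 1.26 of the family's summed CPM per kilobase in nhr-131 with F17, 58.7% ± 5.09 in nhr-131 with DMSO, 54.1% ± 4.73 in wild type with F17 and 56.4% ± 1.56 in wild type with DMSO (SD, n = 5). The secreted members lbp-2 and lbp-3 followed with 303 and 118.6 CPM per kilobase, and lbp-2 lay above lbp-3 in 20 of 20 libraries.

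The middle of the order was not settled. On the same scale lbp-9 averaged 89.3, lbp-7 83.3 and lbp-5 63.2, and lbp-9 exceeded lbp-7 in only 9 of 20 libraries. Then came lbp-1 with 44.0 and lbp-4 with 32.8 CPM per kilobase, lbp-1 the higher in 18 of 20 libraries. Last was lbp-8 with 18.1, a mean that hides its range over the groups: 47.3 ± 24.1 in nhr-131 with F17, 3.07 ± 2.44 in nhr-131 with DMSO, 18.9 ± 6.69 in wild type with F17 and 2.93 ± 1.1 in wild type with DMSO (SD, n = 5). It was the scarcest member in every group but nhr-131 with F17, where its mean stood in position 7 with a range that overlapped that of lbp-1.

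**Figure D1:**
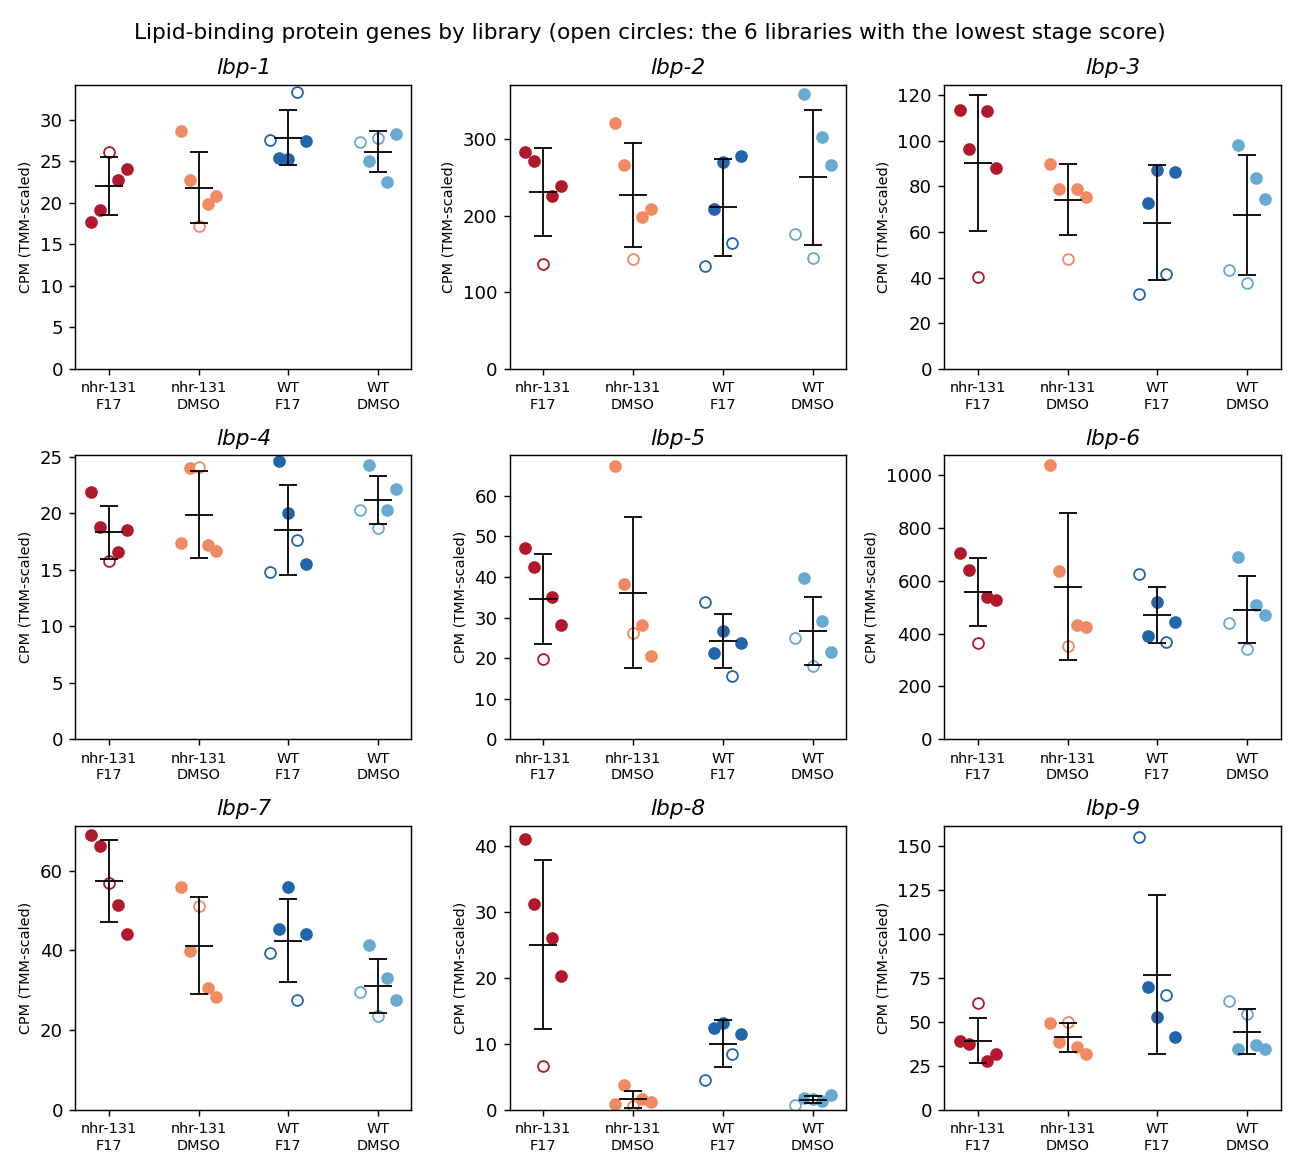
CPM on TMM-scaled library sizes of each of the 9 genes (y axis, linear from 0) in the 20 libraries, with groups on the x axis in the order nhr-131 F17, nhr-131 DMSO, WT (wild type) F17 and WT DMSO; points are libraries, bars the mean and SD of 5, and open circles the 6 libraries with the lowest stage score. The lbp-8 panel shows 6.70 to 40.9 CPM in nhr-131 with F17 and 4.54 to 13.1 CPM in wild type with F17, above all DMSO libraries, which end at 3.79 CPM.

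F17 raised lbp-8, the lysosomal lipid carrier, in both genotypes. In nhr-131 animals with F17 the libraries a to e held 40.9, 31.1, 6.70, 26.0 and 20.3 CPM of lbp-8, against 0.941, 3.79, 0.506, 1.69 and 1.18 CPM with DMSO. In wild type with F17 they held 4.54, 12.3, 13.1, 8.42 and 11.5 CPM, against 0.732, 1.72, 1.65, 1.33 and 2.31 CPM with DMSO. The groups did not overlap in either genotype: the lowest F17 library of each lay above the highest DMSO library of both. Of all tested genes, 0.703% in nhr-131 and 1.45% in wild type likewise had every F17 library above every DMSO library. The 2 low-score libraries of wild type with F17, a and d, were the lowest of their group, and library c of nhr-131, the low-score one, was the lowest with F17 and with DMSO.

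In the edgeR quasi-likelihood fit of all genes, the log2 fold change of lbp-8 was 3.94 in nhr-131 (SE 0.53, 95% interval 2.84 to 5.05, adjusted p = 0.000202), or 15.4-fold. In wild type it was 2.69 (SE 0.50, 95% interval 1.64 to 3.75, adjusted p = 0.00582), or 6.46-fold. It was the only member of 9 called in each genotype, where calls at an adjusted p under 0.05 made up 0.478% of the 13795 tested genes in nhr-131 and 0.928% in wild type. Counts behind the DMSO values were few, 10 to 56 a library, against 137 to 849 with F17 in nhr-131 and 58 to 323 in wild type, so the size of the fold rests on small counts. Without the 6 low-score libraries the log2 fold changes were 3.92 in nhr-131 (adjusted p = 3.37e-06) and 2.78 in wild type (adjusted p = 0.000446). With limma-voom the wild-type call was lost, at 2.74 with an adjusted p of 0.113, while that in nhr-131 was kept at 4.05 with an adjusted p of 0.00805.

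Whether the lbp-8 response differs between genotypes was not resolved. The rise in nhr-131 minus the rise in wild type was 1.25 on the log2 scale (SE 0.68, 95% interval -0.18 to 2.69, unadjusted p = 0.0831, adjusted p = 1), so values between no difference and a several-fold larger response in the mutant are within the interval. No member was called for this difference, nor had any an unadjusted p under 0.05, while 0.246% of all tested genes were called and 3.2% had such a p. DESeq2 and limma-voom also called 0 members for it. Leaving out the 6 low-score libraries gave 1.14 with an adjusted p of 0.269, and the stage score as a covariate gave 0.82 with an adjusted p of 0.661.

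Under F17 the level of lbp-8 was 25.0 ± 12.7 CPM in nhr-131 and 9.99 ± 3.53 CPM in wild type (SD, n = 5). The difference was 1.32 on the log2 scale (SE 0.46, adjusted p = 0.186), in libraries that also enter the F17 comparisons. Library c of nhr-131 fell within the wild-type range, and the other 4 lay above it. Without that library the log2 fold change was 1.56 (adjusted p = 0.0485), and without the 6 low-score libraries 1.26 (adjusted p = 0.0266), both past the threshold. With the stage score as a covariate it was 0.65 (adjusted p = 0.305). The stage score was higher in nhr-131 with F17 than in wild type with F17, by the means given above, and its part in this difference was not tested. With DMSO the genotypes did not separate, at 1.62 ± 1.29 CPM in nhr-131 and 1.55 ± 0.578 CPM in wild type, a difference of 0.07 on the log2 scale (SE 0.51, adjusted p = 0.993).

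**Figure D2:**
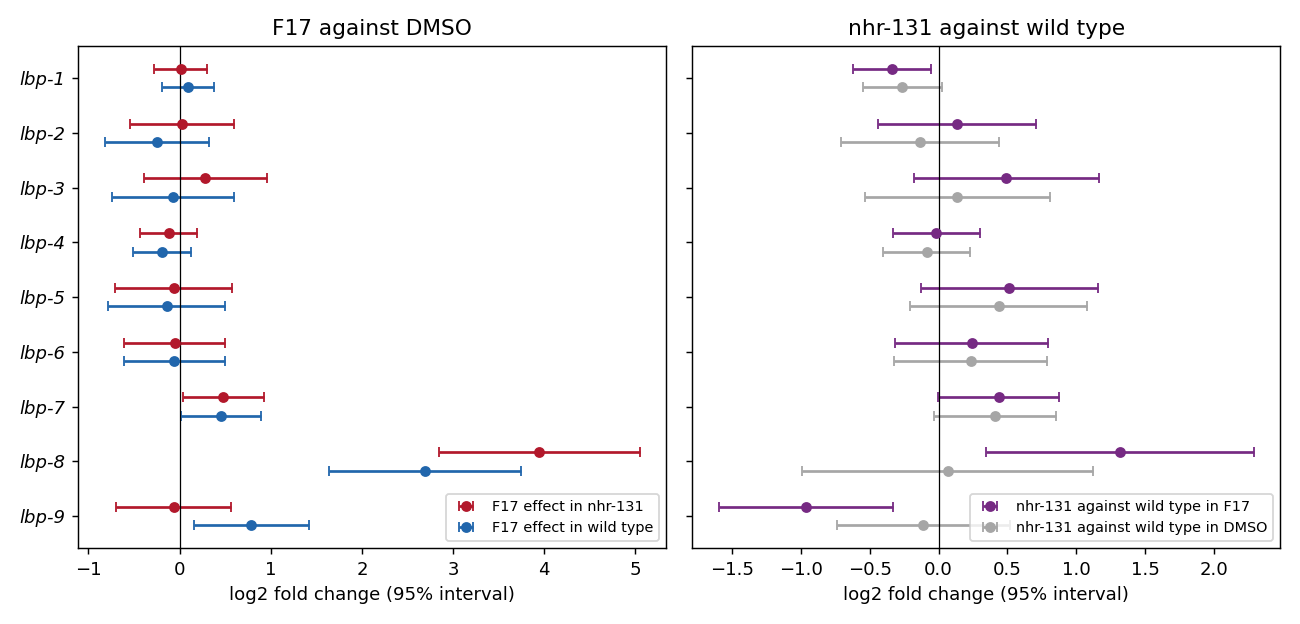
Log2 fold changes of the 9 genes (x axis) with 95% intervals from the edgeR fit, F17 against DMSO on the left in nhr-131 and wild type, and nhr-131 against wild type on the right in F17 and in DMSO. The lbp-8 estimates with F17, 3.94 and 2.69, stand apart from those of the other 8 genes, which lie between -0.25 and 0.79.

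The other 8 members were not called for F17 in either genotype. lbp-7, whose gene lies close to lbp-8 on chromosome V with 3 protein-coding genes between them, had estimates of like size in both genotypes. Its libraries a to e held 69.0, 66.2, 56.9, 51.4 and 44.1 CPM in nhr-131 with F17, against 56.0, 40.0, 51.3, 30.6 and 28.3 CPM with DMSO. In wild type they held 39.3, 45.3, 56.1, 27.5 and 44.1 CPM with F17, against 29.5, 41.4, 23.7, 33.0 and 27.6 CPM with DMSO. The ranges overlapped in both genotypes. The log2 fold change was 0.48 in nhr-131 (SE 0.21, unadjusted p = 0.0339, adjusted p = 1) and 0.45 in wild type (SE 0.21, unadjusted p = 0.0445, adjusted p = 0.633). An unadjusted p under 0.05 was reached by 3.07% of tested genes in nhr-131 and by 7.6% in wild type.

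Genotype estimates for lbp-7 were of like size and were not called either: nhr-131 exceeded wild type by 0.44 on the log2 scale with F17 (SE 0.21, adjusted p = 0.336) and by 0.41 with DMSO (SE 0.21, adjusted p = 0.985). How reads that match more than 1 gene were counted is not given in the sources used here. A sharing of reads between lbp-7 and lbp-8, or between other members, was not tested.

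lbp-9 had a high estimate for F17 in wild type that was not called and fell when 1 library was left out. In nhr-131 the libraries a to e held 39.0, 37.6, 60.6, 27.6 and 31.7 CPM with F17, against 49.4, 38.4, 50, 35.9 and 31.6 CPM with DMSO. In wild type they held 155, 69.5, 52.9, 65.2 and 41.1 CPM with F17, against 61.5, 34.5, 54.6, 36.7 and 34.6 CPM with DMSO. Library a of wild type with F17, a low-score library, stood far above all others, and in each group of nhr-131 the low-score library c was the highest. The log2 fold change with F17 was -0.06 in nhr-131 (SE 0.30, adjusted p = 1) and 0.79 in wild type (SE 0.30, unadjusted p = 0.0173, adjusted p = 0.49). Leaving that library a out took the wild-type value to 0.36. The difference of the effects was -0.85 (SE 0.43, 95% interval -1.74 to 0.04, adjusted p = 1). Without the low-score libraries, lbp-9 in wild type averaged 54.5 ± 14.2 CPM with F17, from 41.1 to 69.5 (SD, n = 3). With DMSO it averaged 35.3 ± 1.26 CPM, from 34.5 to 36.7 (SD, n = 3), so these ranges did not overlap. In nhr-131 the ranges still overlapped, at 27.6 to 39.0 CPM with F17 and 31.6 to 49.4 CPM with DMSO (n = 4 each).

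With F17, lbp-9 averaged 39.3 ± 12.8 CPM in nhr-131 and 76.7 ± 45.0 CPM in wild type (SD, n = 5). The difference was -0.96 on the log2 scale (SE 0.30, unadjusted p = 0.00494, adjusted p = 0.136). This value passed the threshold without library c of nhr-131 with F17 (-1.17, adjusted p = 0.0458) and without the 6 low-score libraries (-0.68, adjusted p = 0.0237), and it was -0.54 once the outlying wild-type library a was left out. Within groups lbp-9 fell with the stage score, by -0.40 on the log2 scale per unit of the score (SE 0.09). The mean score was 0.415 in nhr-131 with F17 and -0.369 in wild type with F17, and its part in this difference was not tested. In the fit without the 6 low-score libraries, lbp-8 and lbp-9 were thus the 2 members called between genotypes under F17, in opposite directions, where 7.55% of the genes tested in that fit were called. In the fit of all 20 libraries no member was called between genotypes by edgeR, against 1.28% of tested genes with F17 and 0.029% with DMSO. An unadjusted p under 0.05 was reached by lbp-1, lbp-8 and lbp-9 with F17, where 15% of tested genes reached it, and by 0 members with DMSO, where 4.17% did. With DMSO, lbp-9 averaged 41.1 ± 8.25 CPM in nhr-131 and 44.4 ± 12.7 CPM in wild type, a difference of -0.11 on the log2 scale (SE 0.30, adjusted p = 0.986).

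Among the secreted members, lbp-1 was the steadiest, and its level in nhr-131 tended to the lower side of wild type without passing the test. It averaged 22 ± 3.51 CPM in nhr-131 with F17, 21.8 ± 4.29 in nhr-131 with DMSO, 27.8 ± 3.31 in wild type with F17 and 26.2 ± 2.42 in wild type with DMSO (SD, n = 5). The log2 fold change of nhr-131 against wild type was -0.34 with F17 (SE 0.14, unadjusted p = 0.0225, adjusted p = 0.25) and -0.26 with DMSO (SE 0.14, unadjusted p = 0.0698, adjusted p = 0.985). The ranges overlapped in both treatments. For F17, the estimates of lbp-1 were 0.01 in nhr-131 (95% interval -0.28 to 0.30) and 0.09 in wild type (95% interval -0.20 to 0.37), the narrowest intervals of the family.

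lbp-2 and lbp-3 varied more between libraries of a group than between groups. In nhr-131 with F17 lbp-3 had 113, 96.5, 40.4, 113 and 88.1 CPM in libraries a to e, against 89.8, 78.8, 48.2, 78.9 and 75.4 CPM with DMSO. In wild type it had 32.9, 72.9, 87.0, 41.6 and 86.2 CPM with F17, against 43.3, 98.2, 37.5, 83.8 and 74.6 CPM with DMSO. In every group the low-score libraries were the lowest, and the same held for lbp-2, which ranged from 137 to 284 CPM in nhr-131 with F17, 144 to 321 in nhr-131 with DMSO, 135 to 278 in wild type with F17 and 146 to 360 in wild type with DMSO.

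The estimates for F17 were 0.28 in nhr-131 and -0.07 in wild type for lbp-3, whose protein carries lipid signals from the intestine to neurons, and 0.02 in nhr-131 and -0.25 in wild type for lbp-2, none of them called. Their 95% intervals reached from -0.82 to 0.95 at the widest, so changes of up to nearly 1 log2 unit would be within the error. Without the 6 low-score libraries lbp-3 averaged 103 ± 12.5 CPM in nhr-131 with F17 (n = 4), 80.7 ± 6.27 in nhr-131 with DMSO (n = 4), 82.0 ± 7.96 in wild type with F17 (n = 3) and 85.5 ± 11.9 in wild type with DMSO (n = 3; each ± SD).

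The intracellular pair lbp-5 and lbp-6, on chromosome I with only ant-1.2 between them, shared a high library. Library a of nhr-131 with DMSO held 67.4 CPM of lbp-5 and 1038 CPM of lbp-6, where the other 19 libraries held 15.6 to 47.2 CPM and 343 to 705 CPM. lbp-5 averaged 34.5 ± 11 CPM in nhr-131 with F17, 36.2 ± 18.6 in nhr-131 with DMSO, 24.2 ± 6.75 in wild type with F17 and 26.7 ± 8.40 in wild type with DMSO, and lbp-6 averaged 556 ± 129, 578 ± 279, 471 ± 105 and 491 ± 127 CPM in the same order (SD, n = 5). For F17 the estimates were -0.06 in nhr-131 and -0.14 in wild type for lbp-5, and -0.05 and -0.06 for lbp-6 in the same order, each with an SE of 0.26 to 0.31. Between genotypes, nhr-131 exceeded wild type by 0.51 with F17 and 0.44 with DMSO for lbp-5, and by 0.24 and 0.23 for lbp-6, with no adjusted p under 0.426. Without the 6 low-score libraries, lbp-5 averaged 38.2 ± 8.43 CPM in nhr-131 with F17 (n = 4) and 23.9 ± 2.70 in wild type with F17 (n = 3). For lbp-6 these were 604 ± 84.2 and 453 ± 65.1 CPM. With DMSO they were 38.6 ± 20.5 and 30.1 ± 9.22 CPM for lbp-5, and 634 ± 287 and 557 ± 116 CPM for lbp-6 (each ± SD). Under F17, neither gene was called between genotypes in that reduced fit.

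lbp-4, on chromosome V between ZK742.6 and mig-6 and away from the other members, stayed within 14.8 to 24.6 CPM in all 20 libraries. Its group means were 18.3 ± 2.36 CPM in nhr-131 with F17, 19.9 ± 3.82 in nhr-131 with DMSO, 18.5 ± 3.98 in wild type with F17 and 21.2 ± 2.11 in wild type with DMSO (SD, n = 5). The F17 estimates were -0.12 in nhr-131 and -0.19 in wild type (SE 0.15 each), and the genotype estimates -0.02 with F17 and -0.09 with DMSO (SE 0.15 each). None passed the test.

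The stage score moved with some members within groups. The slope of log2 level on the score, fitted for all genes with 1 mean per group, was called for 5 of 9 members: lbp-8 (0.72 per unit of the score, SE 0.16, adjusted p = 0.000705), lbp-3 (0.56, SE 0.06, adjusted p = 5.77e-07), lbp-2 (0.44, SE 0.07, adjusted p = 1.91e-05) and lbp-6 (0.25, SE 0.10, adjusted p = 0.0478) upwards, and lbp-9 (-0.40, SE 0.09, adjusted p = 0.000614) downwards. This share is close to that of all tested genes, of which 54% were called, 26.8% upwards and 27.2% downwards. The lbp-6 slope lost its call under 13 of the 20 fits that left out 1 library. Without the 6 low-score libraries no member had a called slope, the lbp-8 slope turned to -0.10 (adjusted p = 0.998), and only 66 genes of the table were called. The slopes thus rest on the contrast of those 6 libraries with the other 14, and the score was made from the expression of other genes in the same libraries.

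**Figure D3:**
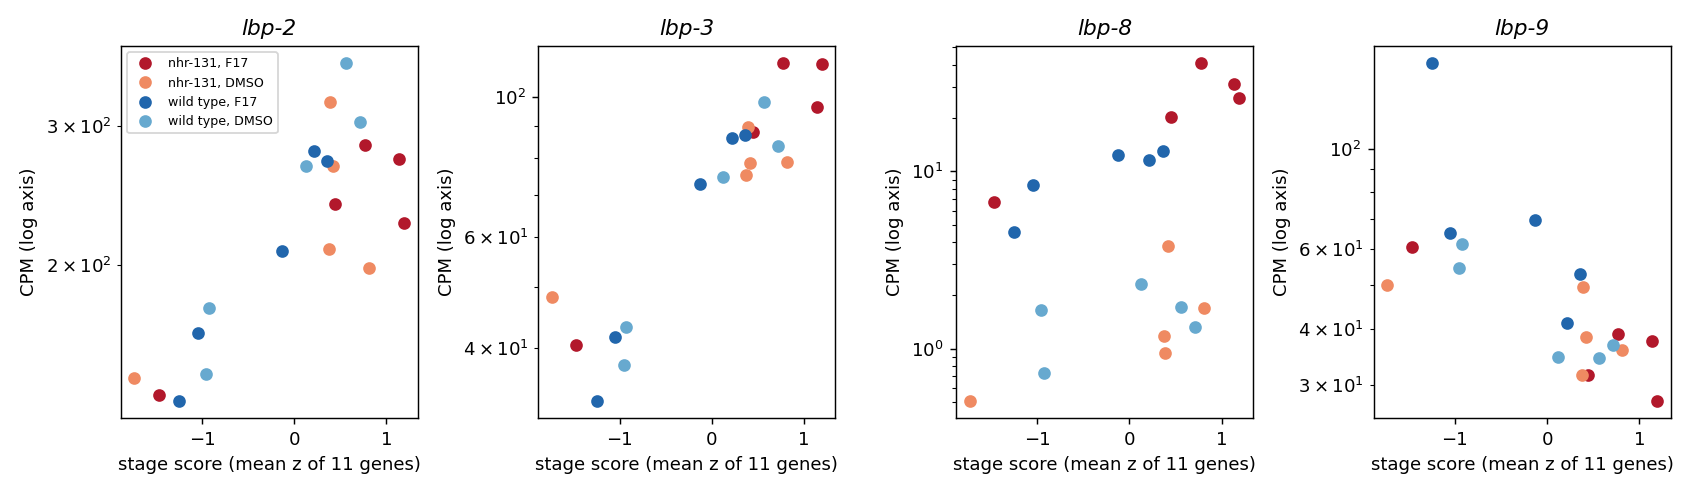
Level in CPM (y axis, log scale) of lbp-2, lbp-3, lbp-8 and lbp-9 against the stage score (x axis, mean z of 11 genes) in the 20 libraries, coloured by group. The 6 libraries at or below -0.926 are low in lbp-2 and lbp-3 and hold 50 to 155 CPM of lbp-9, where the other 14 hold 27.6 to 69.5 CPM, and for lbp-8 the F17 libraries lie above the DMSO libraries on both sides of the gap.

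Within groups, some members varied together over the 20 libraries. After subtracting the group means from log2 CPM, Pearson's r was 0.95 for lbp-5 with lbp-6 and 0.94 for lbp-2 with lbp-3, and the 36 pairs ran from -0.80 (lbp-3 with lbp-9) to that highest value. Neighbourhood on the chromosome did not go along with this in every case. lbp-3, lbp-1 and lbp-2 stand in that order on chromosome X with no protein-coding gene between them, yet r was -0.29 for lbp-1 with lbp-3 and -0.12 for lbp-1 with lbp-2. For lbp-7 with lbp-8 it was 0.06. These correlations share library, depth and scaling: the r of lbp-6 with the log2 TMM factor was -0.82, that of lbp-5 -0.68, and that of lbp-3 with the stage score 0.92.

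**Figure D4:**
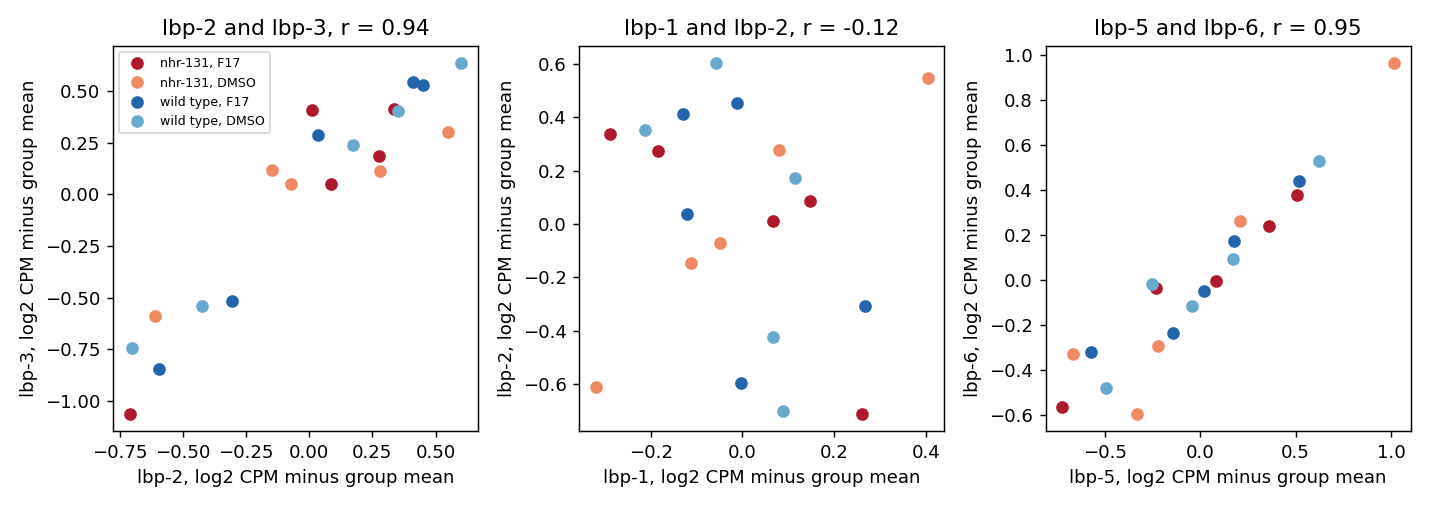
Deviations from the group mean in log2 CPM for lbp-2 and lbp-3, lbp-1 and lbp-2, and lbp-5 and lbp-6 (one gene on each axis), 20 libraries coloured by group. Points line up for lbp-2 with lbp-3 (r = 0.94) and for lbp-5 with lbp-6 (r = 0.95), and scatter for lbp-1 with lbp-2 (r = -0.12).

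Over the 20 libraries, the 3 genes whose log2 CPM followed lbp-8 most closely were cyp-35A2 (r = 0.96), W01A11.1 (r = 0.94) and B0238.1 (r = 0.94). Group means were not subtracted for these r or for those of the other members below, so differences between groups enter them. Scaling and the stage score, on which 54% of tested genes had a called slope, enter them as well. cyp-35A2, a cytochrome P450 gene of the xenobiotic response, averaged 367 CPM in nhr-131 with F17, 29.2 in nhr-131 with DMSO, 173 in wild type with F17 and 22.5 in wild type with DMSO. For lbp-3 they were gstk-1, a glutathione S-transferase gene, dct-11 and F58F9.7, each with r = 0.98, and for lbp-2 gst-26, another glutathione S-transferase gene (0.96), B0035.13 (0.95) and gsnl-1, a gelsolin relative (0.95).

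For lbp-6 the leading genes were F25H2.4 (0.96), sel-9 (0.95) and vha-10, a subunit of the proton pump that acidifies lysosomes (0.95), and for lbp-5 they were Y119D3B.21 (0.96), mrpl-11, a mitochondrial ribosomal protein gene (0.94), and lbp-6 itself (0.93). lbp-9 was followed by T28D9.1 (0.96), R09B3.2 (0.93) and C01G10.5 (0.92), and lbp-7 by nlp-34 (0.91), C02E7.7 (0.91) and ZK909.3 (0.89). lbp-1 had looser partners, dhs-29 (0.87), let-4 (0.86) and wrt-10 (0.86), and lbp-4 the loosest, sre-4 (0.74), flr-2 (0.73) and C16C2.4 (0.73).

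Of the genes next to the members and outside the family, T22G5.3, Y40B10A.9, ZK742.6, mig-6, smg-5, mec-6 and nhr-86 were tested, and edgeR called none of these 7 for F17 or for genotype. That is near the background: of all tested genes, 0.478% were called for F17 in nhr-131 and 0.928% in wild type. Between genotypes the shares were 1.28% with F17 and 0.029% with DMSO. fbxb-71, ant-1.2, T22G5.1 and spp-12 did not pass the filter, and F40F4.10 and 21ur-15418 were not analysed here. Next to lbp-8, spp-12 had a mean of at most 0.0833 CPM in any group. Beside lbp-7, T22G5.3 averaged 4.66 ± 0.554 CPM in nhr-131 with F17, 4.82 ± 1.48 in nhr-131 with DMSO, 3.86 ± 0.514 in wild type with F17 and 4.90 ± 0.897 in wild type with DMSO (SD, n = 5). The end of lbp-9 overlaps Y40B10A.9, whose log2 fold change with F17 was -0.01 in nhr-131 and -0.28 in wild type, neither called. The libraries were strand-specific by the labels, but whether the counting used strand is not given in the sources used here.

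Lists of lysosomal lipases, of lipid receptors and regulators, and of fat metabolism genes were read next. They are broad, and not every gene in them is known to act with LBP-8 in its lysosome-to-nucleus route. Of all tested genes, 0.478% were called for F17 in nhr-131 and 0.928% in wild type. At these shares a count of 0 in a short list is near the background. Of the lysosomal lipases, which release the lipids that LBP-8 carries, 0 of 7 tested genes were called for F17 in either genotype (unadjusted p under 0.05 for 0 in nhr-131 and 1 in wild type), with a median log2 fold change of -0.01 in nhr-131 and -0.20 in wild type, beside -0.01 over all genes in both. Of 9 tested lipid receptors and regulators, nhr-49, nhr-80 and sbp-1 among the names listed, 0 were called (unadjusted p under 0.05 for 1 in nhr-131 and 0 in wild type), with medians of -0.09 in nhr-131 and -0.15 in wild type. Of 11 genes of fat metabolism linked to NHR-49, 0 were called (unadjusted p under 0.05 for 1 in nhr-131 and 3 in wild type), with medians of -0.01 in nhr-131 and -0.17 in wild type. DESeq2 and limma-voom also called 0 genes of these 3 lists for F17 in both genotypes, and without the 6 low-score libraries 3 of the 11 genes of fat metabolism were called in wild type, in a fit that called 6.71% of all tested genes.

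The remaining lipid carriers gave 1 further call. far-3, of the nematode family of fatty acid and retinol binding proteins, averaged 55.3 ± 27.1 CPM in nhr-131 with F17, 12.8 ± 6.52 in nhr-131 with DMSO, 188 ± 113 in wild type with F17 and 8.77 ± 4.65 in wild type with DMSO (SD, n = 5). Its log2 fold change with F17 was 2.12 in nhr-131 (adjusted p = 0.353) and 4.43 in wild type (SE 0.67, adjusted p = 0.000602), and the difference of the effects was -2.30 (adjusted p = 1). Without the 6 low-score libraries the nhr-131 effect (2.11, adjusted p = 2.32e-06) and the difference (-2.43, adjusted p = 0.00015) both passed. With the stage score as a covariate both passed as well (1.68, adjusted p = 3.72e-05, and -2.98, adjusted p = 3.71e-06), and the nhr-131 effect also passed with DESeq2 (2.13, adjusted p = 0.0314). It was 1 of 7 tested far genes, and 0 of 6 genes of acyl-CoA binding proteins and 0 of 6 of lipid droplets and lipolysis were called for F17.

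Among 13 genes of fatty acid uptake and of N-acylethanolamines, the lipid amides that include a ligand of LBP-8, nape-2 was the only one called for F17 in wild type, and 0 were called in nhr-131. Without the 6 low-score libraries 3 of the 13 were called in wild type, where 6.71% of all tested genes were. nape-2 encodes a phospholipase that makes these amides. In nhr-131 its range was 9.24 to 14.7 CPM with F17 and 7.75 to 16.4 CPM with DMSO, so the treatments overlapped. In wild type its libraries a to e held 41.3, 33.8, 31.0, 37.0 and 38.0 CPM with F17, against 10.9, 11.9, 11.9, 11.2 and 10.7 CPM with DMSO, with no overlap. It averaged 11.4 ± 2.15 CPM in nhr-131 with F17, 11 ± 3.24 in nhr-131 with DMSO, 36.2 ± 3.94 in wild type with F17 and 11.3 ± 0.58 in wild type with DMSO (SD, n = 5). The log2 fold change with F17 was 1.68 in wild type (SE 0.17, adjusted p = 2.23e-06), and the difference of the effects, nhr-131 minus wild type, was -1.61 (SE 0.23, adjusted p = 0.00169). For lbp-8 the corresponding difference was positive and not called, as given above. Of the tissue markers, pept-1, the intestinal peptide transporter (log2 fold change 0.61, adjusted p = 0.0285), and dpy-7, a larval cuticle collagen (-1.25, adjusted p = 0.0261), were called for nhr-131 against wild type with F17, the comparison in which lbp-8 and lbp-9 crossed the threshold without the low-score libraries. They were 1 of 10 intestinal and 1 of 8 hypodermal markers, none of which was at 0. An unadjusted p under 0.05 was reached by 2 markers of each of these lists. Of all tested genes, 1.28% were called in this comparison and 15% had such a p. Summed, the 10 intestinal markers ran from 9185 to 20670 CPM in nhr-131 with F17 and from 10199 to 18167 CPM in wild type with F17, and the 8 hypodermal markers from 1482 to 5538 and from 1436 to 5999 CPM in the same order. The germline markers had the lowest median log2 fold change of the 6 tissue lists in this comparison, -0.91 over 8 genes, each between -0.98 and -0.64, with 0 called and 1 at an unadjusted p under 0.05. Summed, they ran from 177 to 782 CPM in nhr-131 with F17 and from 296 to 926 CPM in wild type with F17. The 6 pharynx markers had a median of -0.72, with 0 called, and sums of 160 to 1146 CPM in nhr-131 with F17 and 243 to 971 CPM in wild type with F17. Medians were -0.01 for 8 body wall muscle markers and -0.21 for 8 neuron markers, with 0 called in each, beside -0.03 over all tested genes. The part of these markers in the lbp-8 and lbp-9 values was not tested.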

How the data were processed

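The authors deposited whole counts of reads per gene in 28301 genes and 20 libraries, aligned with TopHat2 and counted with HTSeq per the submitters' processing notes. The build and annotation used for counting are not named in any source used here, and coordinates are left out. Chromosomes, gene order and exon lengths came from assembly WBcel235. Sequences of the members were not used here. The members and lists were chosen with earlier results of these data known.

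Genes were filtered with filterByExpr (minimum count 10), which kept 13795 genes and all 9 members. Libraries were scaled with TMM factors and fitted in 1 quasi-likelihood model (edgeR 4.0.16, R 4.3.3) with 4 group means and robust dispersion. A gene was called where its p, adjusted by Benjamini-Hochberg over all tested genes, was under 0.05. SE is the absolute log2 fold change over the square root of F. CPM per kilobase divides by the union of exons, 481 to 759 bases. The code was also run on simulated counts with known changes. There genes varied independently and the stage score acted only on a small chosen set, unlike in these data. No result given here rests on that run.

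The text names all 9 members, nhr-131, up to 4 called genes of each other list per comparison, the genes beside each member, and the 3 genes with the highest Pearson correlation of log2 CPM to each member. Alternatives were other scalings and filters, DESeq2 1.42.0, limma-voom (limma 3.58.1), fewer libraries, the column letter as a block and the stage score as a covariate. Column letters could not be tied to the replicate numbers of the labels. The value of 3 counts as CPM covers counting error only.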

Additional observations from a re-analysis of the deposited data

Results flagged for a closer look

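In wild type with F17, library a held 155 CPM of lbp-9, while the other 4 libraries of its group held 41.1 to 69.5 CPM, a gap wide enough for Dixon's test at the 95% level. Chance flags about 1 in 20 groups, and 1 of 40 groups tested over the 9 members and nhr-131 was flagged. This library also had the lowest stage score of its group, -1.25, and 22.5% of its counts on ribosomal RNA genes.

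The response of nape-2 to F17 differed between genotypes, with a difference of -1.61 on the log2 scale, nhr-131 minus wild type (adjusted p = 0.00169, edgeR quasi-likelihood F-test). All 5 wild-type libraries with F17 lay above all wild-type libraries with DMSO.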

How the results depend on the processing

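The rise of lbp-8 with F17 kept its direction under every alternative run, and it kept its call in both genotypes in all 20 fits that left out 1 library (3.70 to 4.52 in nhr-131, 2.51 to 2.88 in wild type). With limma-voom 0 members were called in wild type. Between genotypes under F17, 2 members (lbp-8 and lbp-9) were called without the 6 low-score libraries, and 0 to 2 with 1 library left out, 2 only without library c of nhr-131 with F17. No member had a called slope (0 of 9) without the 6 low-score libraries. The mean levels of the 9 members stayed within 1 SD under DESeq2 size factors. Leaving out 1 of 5 libraries moves a group mean by less than 1 SD almost whatever the values, so that limit tests nothing there. The lbp-9 mean in wild type with F17, 76.7 CPM, was 57.5 CPM without its library a. The lbp-8 values with DMSO rest on few counts, which limits the size of its fold changes. Whole-animal RNA and the spread of the stage score within groups limit all of these comparisons, and the stage score shares its libraries with the values it is set against. Where an alternative moved a value, the cause was not tested.

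Counts over all genes moved more than those of the members. For F17 in nhr-131, 66 genes were called, against 118 with the stage covariate and 140 without the 6 low-score libraries. In wild type these were 128, against 197 with DESeq2, 272 with the covariate and 906 without the 6. Between genotypes under F17 there were 177, against 537 with DESeq2, 640 with the covariate, 1019 without the 6 and 107 in a fit of the compared libraries alone. With DMSO there were 4, against 11 in each of the DESeq2, covariate and reduced fits. For the difference of effects there were 34, against 52 with DESeq2, 59 with the covariate and 116 without the 6. Slopes were called for 7451 genes, against 66 without the 6. Leaving out 1 library gave 83 to 449 genes between genotypes under F17: of nhr-131 with F17, 92 without a, 86 without b, 449 without c and 83 without d, and of wild type with F17, 90 without b and 99 without d. For the difference it gave 19 to 31, with 22 without d or e of nhr-131 with F17, 20 without b and 22 without d of nhr-131 with DMSO, 19 without c and 22 without e of wild type with F17, and 22 without b and 20 without e of wild type with DMSO.

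Estimates near 0, none of them called, changed sign. For F17 in nhr-131 this was so for lbp-1 (-0.14 without the 6), lbp-2 (-0.15 with the covariate), lbp-4 (0.0013 without the 6), lbp-5 (0.037 with limma-voom), lbp-6 (0.012 with limma-voom) and lbp-9 (0.0399 with the covariate). In wild type the covariate gave 0.076 for lbp-3 and 0.045 for lbp-6. Between genotypes under F17, lbp-2 was -0.20 with the covariate, and lbp-4 was 0.015 with no filter and 0.00062 in the compared libraries alone. With DMSO, lbp-3 was -0.0900 and lbp-9 0.13 without the 6, and lbp-8 was -0.19 with limma-voom and -0.17 with the covariate. For the difference of effects, the covariate gave -0.039 for lbp-2, -0.068 for lbp-3, -0.15 for lbp-5, -0.19 for lbp-6 and -0.015 for lbp-7, and lbp-6 was -0.0072 with DESeq2 size factors in edgeR, -0.0072 with DESeq2 and -0.0044 with the strict filter. The lbp-4 slope was -0.0200 with upper-quartile factors and -0.31 without the 6, and the lbp-8 slope, called in the fit of all libraries, was -0.10 without them.

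With 1 library left out, sign changes gave these ranges. For F17 in nhr-131 they were -0.062 to 0.13 for lbp-1, -0.10 to 0.18 for lbp-2, -0.21 to 0.29 for lbp-5, -0.19 to 0.27 for lbp-6 and -0.27 to 0.0398 for lbp-9. In wild type they were -0.23 to 0.10 for lbp-3, -0.29 to 0.047 for lbp-5 and -0.18 to 0.093 for lbp-6. Between genotypes lbp-4 ran from -0.087 to 0.12 under F17, and with DMSO lbp-2 ran from -0.29 to 0.032, lbp-3 from -0.017 to 0.31, lbp-6 from -0.087 to 0.39, lbp-8 from -0.51 to 0.31 and lbp-9 from -0.20 to 0.034. The difference of effects ran from -0.15 to 0.0400 for lbp-1, -8.3e-05 to 0.20 for lbp-4, -0.11 to 0.43 for lbp-5, -0.15 to 0.33 for lbp-6 and -0.10 to 0.16 for lbp-7, and the lbp-4 slope from -0.013 to 0.11.

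Whether the column letters pair the samples was not settled. Deviations of libraries with the same letter correlated from -0.73 to 0.84 over 30 pairs. They ran from 0.0043 to 0.52 for letter b and from 0.23 to 0.63 for e. Both signs occurred for a (-0.50 to 0.57), c (-0.73 to 0.84) and d (-0.72 to 0.43). Pairs with different letters were not compared, and the stage score enters these deviations. With the letter as a replicate block, the members called were unchanged in number except for the slope (6, against 5), where lbp-5 joined at 0.35 (adjusted p = 0.0082). Over all genes the block gave 66 calls for F17 in nhr-131, 123 in wild type, 187 between genotypes under F17, 5 with DMSO and 20 for the difference. It turned the sign of F17 estimates to 0.0033 for lbp-6 in nhr-131 and 0.019 for lbp-3 in wild type, and of genotype estimates to 0.0034 for lbp-4 under F17 and -0.088 for lbp-8 with DMSO.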
